A study of Mus musculus with 12 samples.

Results

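Toll-like receptors (TLRs) are the sensors with which macrophages detect microbial lipids, proteins and nucleic acids, and UNC93B1 is the membrane protein that carries the nucleic acid sensors to endosomes. The mRNA of 9 receptors (Tlr1, Tlr2, Tlr3, Tlr4, Tlr6, Tlr7, Tlr8, Tlr9 and Tlr13) and of Unc93b1 was examined in bone marrow-derived macrophages (BMDMs). These 10 genes were taken by symbol from the 12960 genes of the counts, and all 10 were among the 10822 genes that passed the filter on low counts. For the comparison of sites, Tlr1, Tlr2, Tlr4 and Tlr6 were the 4 surface receptors, Tlr3, Tlr7, Tlr8, Tlr9 and Tlr13 were the 5 endosomal receptors, and Unc93b1 stood apart.

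BMDMs came from wild-type (WT) mice and from mice lacking AMPKβ1 in the whole body (AMPKβ1-/-, the AMPK B1 knockout of the labels). AMPK is a kinase that responds to low cellular energy, and PF-06409577 (PF) is a small molecule that activates complexes holding its β1 subunit. Marrow cells of both genotypes were grown with L929 medium, a source of the macrophage growth factor M-CSF, for 7 days, and then received vehicle (0.1% DMSO) or 10 μM PF for 6 h. The labels name no TLR ligand among the treatments. Each of the 4 groups had 3 libraries of between 8935609 and 14358180 counts, and the labels do not say whether the 3 came from separate animals or cultures, so p-values measure the spread between these samples only. In bulk RNA, fewer cells of a type and less RNA per cell cannot be told apart.

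TLRs share an outer horseshoe of leucine-rich repeats, a transmembrane segment and an intracellular TIR domain, through which most of them recruit the adaptor MyD88 to activate NF-κB and interferon regulatory factors. Surface receptors mainly bind microbial lipids, whereas endosomal receptors bind RNA or DNA and must leave the endoplasmic reticulum with UNC93B1 and be cleaved by proteases before they signal. In macrophages these routes drive the production of cytokines and interferons.

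The receptors differ in base composition, on which the counts had a different slope from library to library (values below), and their coding sequences show how far. The following stretches of 60 bases hold the start of the TIR domain in the 6 receptors where the same search found it, read 5′ to 3′ from the GRCm38 genome with GENCODE M21, and the capitals mark the 4 codons of its conserved box 1.
Tlr2: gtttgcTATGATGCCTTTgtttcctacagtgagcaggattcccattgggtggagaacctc
Tlr4: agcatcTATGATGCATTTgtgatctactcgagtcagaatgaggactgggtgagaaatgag
Tlr7: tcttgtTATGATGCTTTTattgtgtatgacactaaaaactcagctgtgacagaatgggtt
Tlr8: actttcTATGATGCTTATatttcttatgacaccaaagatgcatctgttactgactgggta
Tlr9: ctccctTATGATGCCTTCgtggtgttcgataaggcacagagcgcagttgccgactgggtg
Tlr13: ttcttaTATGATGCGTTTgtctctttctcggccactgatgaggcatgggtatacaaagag
They lie in coding exons on the minus strand at chr3:83836801-83836860 (Tlr2), chrX:167305762-167305821 (Tlr7) and chrX:167243189-167243248 (Tlr8), and on the plus strand at chr4:66840979-66841038 (Tlr4), chr9:106226113-106226172 (Tlr9) and chrX:106159152-106159211 (Tlr13). Around these shared codons the stretch was 35.0% GC in Tlr7 and Tlr8 but 56.7% GC in Tlr9. Over the whole coding sequence 72.5% of the last codon positions were G or C in Tlr9, against 45.5% in Tlr8 and 44.2% in Tlr4. Over all exons, the GC content was 39.4% in Tlr4, 40.0% in Tlr3, 40.1% in Tlr8, 41.0% in Tlr7, 43.6% in Tlr13, 45.1% in Tlr1, 45.6% in Tlr6 and 49.3% in Tlr2. Only Tlr9, with 56.2%, and Unc93b1, with 57.3%, lay above the median of the genes tested, which was 49.7%.

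Promoters are shown for 3 members whose mRNA is described below as changed, Tlr2 and Tlr9 with PF and Tlr8 between the genotypes. The sequences are the 250 bases before the transcription start in RefSeq (build GRCm38.p6), read 5′ to 3′ on the strand of the gene, at chr3:83841609-83841858 on the minus strand (Tlr2), chr9:106222348-106222597 on the plus strand (Tlr9) and chrX:167264330-167264579 on the minus strand (Tlr8).
Tlr2: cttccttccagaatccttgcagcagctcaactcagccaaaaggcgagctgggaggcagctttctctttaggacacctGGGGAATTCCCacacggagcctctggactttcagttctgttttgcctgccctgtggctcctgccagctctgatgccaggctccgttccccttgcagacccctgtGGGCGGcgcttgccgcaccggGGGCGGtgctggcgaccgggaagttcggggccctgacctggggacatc
Tlr9: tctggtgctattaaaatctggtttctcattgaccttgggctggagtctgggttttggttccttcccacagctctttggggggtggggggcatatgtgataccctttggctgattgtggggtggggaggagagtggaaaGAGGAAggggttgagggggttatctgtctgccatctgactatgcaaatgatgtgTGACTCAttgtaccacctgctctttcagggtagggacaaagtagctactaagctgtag
Tlr8: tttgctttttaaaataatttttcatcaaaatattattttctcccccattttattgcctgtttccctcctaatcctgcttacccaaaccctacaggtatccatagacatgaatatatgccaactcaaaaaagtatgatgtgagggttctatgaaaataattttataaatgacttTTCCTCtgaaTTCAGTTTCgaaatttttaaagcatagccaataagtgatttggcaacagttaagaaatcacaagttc
The capitals mark matches, on either strand, to a PU.1 core (GAGGAA), an E-box (CACGTG), a CRE (TGACGTCA), an AP-1 site (TGANTCA), an ISRE core (GAAANNGAA), a GC box (GGGCGG) or a kappaB motif. Tlr2 held 2 GC boxes and 2 overlapping kappaB matches, Tlr9 held 1 PU.1 core and 1 AP-1 match, and Tlr8 held 1 PU.1 core and 1 ISRE core. In GENCODE M21 the Tlr2 gene begins at chr3:83841767, so part of its RefSeq window, with the GC boxes, lies inside that gene model. Of the members with a window that is not shown, Tlr3 held 1 kappaB match and Tlr13 held 1 PU.1 core. Tlr1 held 1 PU.1 core in a window and 1 E-box in another, and Tlr6 held 2 ISRE cores in a window and no match in another. Whether the matches bear on the mRNA was not tested. Among the 32851 promoter windows of RefSeq of the same length, 23.3% held the PU.1 core, 6.02% the E-box, 1.55% the CRE, 6.75% the AP-1 site, 7.13% the ISRE core, 32.7% the GC box and 7.25% the kappaB motif. The GC content of these windows was 62.8% for Tlr2, 50.4% for Tlr9 and 31.2% for Tlr8, with a median of 52.4% over all windows.

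On GRCm38, with the GENCODE M21 gene models, Tlr1 (chr5:64924679-64933563) and Tlr6 (chr5:64952031-64960097) lie next to each other on the minus strand, as do Tlr7 (chrX:167304929-167330558) and Tlr8 (chrX:167242696-167264329). Tlr2 (chr3:83836272-83841767) and Tlr3 (chr8:45395665-45411080) are also on the minus strand, and Tlr4 (chr4:66827584-66930284), Tlr9 (chr9:106222598-106226883), Tlr13 (chrX:106143204-106160493) and Unc93b1 (chr19:3935186-3949340) on the plus strand. The build behind the counts is not given in the sources used here, so these positions serve only to place the genes.

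The knockout was checked first. Prkab1, which encodes AMPKβ1, had 406, 479 and 455 counts in WT vehicle, 489, 399 and 490 in WT PF, 92, 118 and 57 in AMPKβ1-/- vehicle and 108, 120 and 85 in AMPKβ1-/- PF, a log2 fold change of −2.57 ± 0.12 (SE) between the genotypes with vehicle (adjusted p = 8.85e-09). All 7 macrophage markers were detected in every library, with a sum between 24383 and 28492 CPM (counts scaled by TMM to a common library size). Markers of other cells that use these receptors were at or near 0: the B cell gene Cd79b had 0.651 to 2.35 CPM, the plasmacytoid dendritic cell genes Siglech and Ccr9 had at most 6 and 3 counts, and the summed granulocyte, conventional dendritic cell and fibroblast markers reached at most 0.784, 0.554 and 5.01 CPM. Tcf4, a transcription factor listed as a plasmacytoid marker but not specific to these cells, was the exception with 27.7 to 70.0 CPM, and its list summed to 28.1 to 37.2 CPM in WT and 45.9 to 70.4 CPM in AMPKβ1-/- libraries. Its part in the genotype differences of the receptors was not tested. Of the markers listed, the counts held 1 of 4 for B cells, 2 of 4 for conventional dendritic cells and 3 of 6 for granulocytes. They held 0 of 4 for T and NK cells, which were therefore not analysed. Tlr1 and Tlr6 shared 454 stretches of 50 bases, the read length, which are 13.6% of those of Tlr1 and 12.3% of those of Tlr6, so the split of counts between them is uncertain, whereas the other 8 members shared none with each other.

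With PF in WT BMDMs, 4 of the 10 genes changed at an adjusted p below 0.05: Tlr13 rose, and Tlr2, Tlr9 and Unc93b1 fell. Of all genes tested, 6.99% rose and 8.95% fell in this comparison. Leaving out WT vehicle library 1, WT vehicle library 3 or WT PF library 3 left 2, both lower, and the count was 2 with only the WT libraries in the fit. Over all genes the share called in either direction fell as well, from 15.9% to 4.93%, 6.4% and 3.17% without these libraries and to 4% with only the WT libraries. None of the 4 passed the study's further threshold of a log2 fold change beyond 0.8, which 1.52% of all genes did. In AMPKβ1-/- BMDMs 0 of the 10 changed with PF in edgeR, DESeq2 or limma-voom, where 0.0554% of all genes rose and 0% fell in edgeR. In either direction DESeq2 called 0.453% of all genes there and limma-voom 0.249%. At an unadjusted p below 0.05 by edgeR there were 0 of the 10, beside 539 of the 10822 genes tested. For the difference between the responses of the genotypes 0 of 10 passed in edgeR or limma-voom. By edgeR 0.176% of all genes passed with a more positive and 0.24% with a more negative response in WT. By limma-voom these shares were 0.148% and 0.249%. At an unadjusted p below 0.05 by edgeR there were 2 of the 10, beside 1550 of the 10822 genes tested. DESeq2 called 1 member, Tlr9, with a more negative response in WT, as it did 1.11% of all genes, and 0.647% with a more positive one.

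Between the genotypes, 7 of the 10 genes differed with vehicle: Tlr3, Tlr4, Tlr7, Tlr8 and Tlr13 were higher in AMPKβ1-/- BMDMs, and Tlr9 and Unc93b1 were lower. This comparison had many calls, with 29.7% of all genes higher and 30% lower. Tlr3, Tlr4 and Tlr8 also passed the log2 fold change of 0.8, as 16.1% of all genes did in this direction. With PF, Tlr1, Tlr2, Tlr4, Tlr8 and Tlr9 were higher in AMPKβ1-/- BMDMs and 0 were lower, beside 24.1% of all genes higher and 22.9% lower. Without AMPKβ1-/- PF library 1 or 2 the count was 3, where the share of all genes called in either direction went from 47.1% to 35.8% and 42.3%. For the genotypes with PF, DESeq2 called 6 higher and 0 lower, beside 24.3% and 20.6% of all genes. By limma-voom 5 were higher and 0 lower, beside 24.6% and 22.7% of all genes. By edgeR 6 of 10 had an unadjusted p below 0.05, as did 5871 of the 10822 genes tested.

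**Figure D1:**
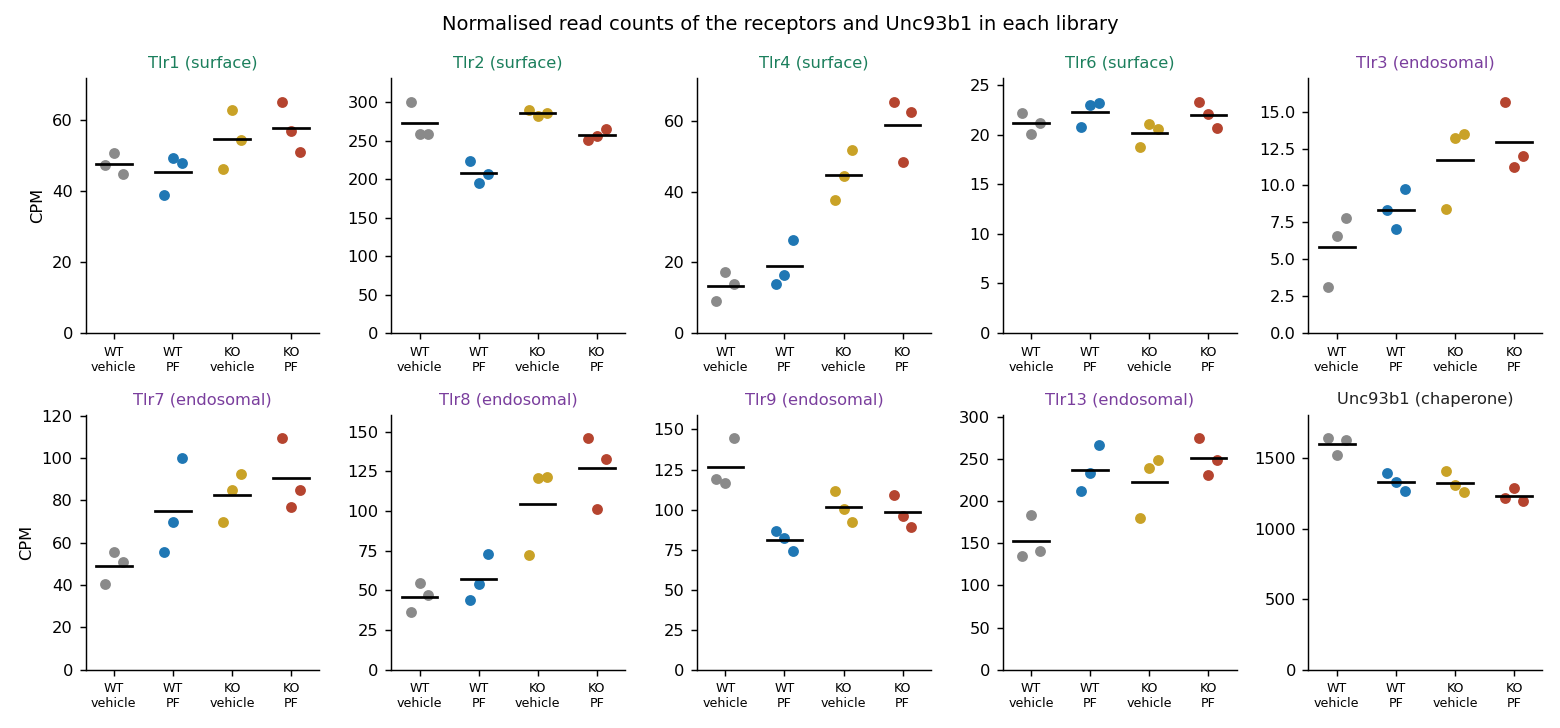
Normalised read counts (CPM, vertical axes starting at 0) of the 4 surface receptors, the 5 endosomal receptors and Unc93b1, with 1 point per library and a black line at the mean of the 3 libraries of each group; KO is AMPKβ1-/-. In WT BMDMs the 3 PF libraries lie below the 3 vehicle libraries for Tlr2, Tlr9 and Unc93b1 and above them for Tlr13. Tlr3, Tlr4 and Tlr8 lie higher in every KO library than in every WT library with the same treatment.

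The libraries differed by group in how counts followed base composition. The slope of a library's deviation from the gene's mean log2 CPM over all libraries, per 10 percentage points of GC, was 0.34 to 0.69 in WT vehicle, −0.054 to 0.35 in WT PF, −0.34 to −0.094 in AMPKβ1-/- vehicle and −0.49 to −0.32 in AMPKβ1-/- PF. WT vehicle library 1 had the highest of the 12 slopes. Each comparison was therefore also fitted with the trend in GC content and exon length removed from every library, and the values of that fit are given below for the members and for the pathway genes called. With the trend removed, 3.09% of all genes rose and 3.73% fell with PF in WT, 16.3% were higher and 21.9% lower in AMPKβ1-/- with vehicle, and 17.8% were higher and 23% lower with PF. Slope and group moved together here, so a difference in library preparation and a change in the cells' RNA cannot be told apart.

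Among the surface receptors, Tlr2, which binds bacterial lipoproteins, fell with PF in WT. In WT BMDMs Tlr2 had 301, 258 and 259 CPM with vehicle and 224, 195 and 206 CPM with PF. Its values in AMPKβ1-/- BMDMs were 290.1, 282 and 286 CPM with vehicle and 250.5, 256 and 265 CPM with PF. The PF libraries lay below all vehicle libraries in both genotypes. The log2 fold change was −0.39 ± 0.078 in WT (adjusted p = 0.00702) and −0.15 ± 0.078 in AMPKβ1-/- (adjusted p = 0.982), and the difference between them did not pass (−0.23 ± 0.11, adjusted p = 0.352). After removal of the GC trend, the WT value was −0.42 (adjusted p = 0.00094). The call held without each library in turn, and the adjusted p rose to 0.0556 when the fit held only the 6 WT libraries. With vehicle the genotypes differed in Tlr2 by 0.07 (adjusted p = 0.454), while with PF it was higher in AMPKβ1-/- by 0.30 ± 0.078 (adjusted p = 0.0054). With the trend removed these values were 0.17 (adjusted p = 0.0488) and 0.45 (adjusted p = 5.78e-05). With library size alone as the scaling the value with vehicle was 0.28 (adjusted p = 0.00208).

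Tlr4, which detects lipopolysaccharide together with MD-2 and CD14, had the largest genotype difference of the 10 genes. In WT BMDMs Tlr4 had 9.19, 17.2 and 13.8 CPM with vehicle and 14, 16.4 and 26.4 CPM with PF. The AMPKβ1-/- libraries had 37.7, 44.4 and 51.9 CPM with vehicle and 65.4, 48.3 and 62.6 CPM with PF for Tlr4. Every AMPKβ1-/- library exceeded every WT library, by a log2 fold change of 1.72 ± 0.25 with vehicle (adjusted p = 0.000127) and 1.63 ± 0.23 with PF (adjusted p = 0.000148), which is 3.31-fold and 3.09-fold. Removing the GC trend reduced them to 0.66 (adjusted p = 0.000758) and 0.69 (adjusted p = 0.000185), both still called, as they were in all 16 alternatives of each comparison. With PF the vehicle and PF libraries overlapped in each genotype, and the log2 fold change was 0.50 ± 0.25 in WT (adjusted p = 0.179) and 0.40 ± 0.22 in AMPKβ1-/- (adjusted p = 0.982). The GC-corrected PF values were 0.074 and 0.11.

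Tlr1 and Tlr6, which pair with TLR2 to recognise triacylated and diacylated lipopeptides, moved little. In WT BMDMs Tlr1 had 47.4, 50.8 and 44.8 CPM with vehicle and 38.8, 49.4 and 48.1 CPM with PF. In AMPKβ1-/- BMDMs Tlr1 had 46.4, 63.1 and 54.6 CPM with vehicle and 65.3, 57.2 and 51.2 CPM with PF. The ranges with vehicle and PF overlapped in both genotypes, and with PF every AMPKβ1-/- library exceeded every WT library. That genotype difference was 0.35 ± 0.12 (adjusted p = 0.031) and did not pass without WT PF library 1 (adjusted p = 0.137), without AMPKβ1-/- PF library 1 (0.154) or 2 (0.0572), or with the GC trend removed (0.17 (adjusted p = 0.144)). With vehicle the genotype difference of Tlr1 was 0.20 ± 0.13 (adjusted p = 0.177), and −0.19 (adjusted p = 0.123) with the trend removed. It passed with library size alone as the scaling, 0.41 (adjusted p = 0.0213), and without AMPKβ1-/- vehicle library 1, 0.31 (adjusted p = 0.0467). In WT, PF gave −0.068 ± 0.13 for Tlr1 (adjusted p = 0.71), which became −0.34 (adjusted p = 0.0356) with the trend removed. Tlr6 lay between 18.8 and 23.3 CPM in all 12 libraries, the narrowest range of the 10 genes, and passed in none of the comparisons from the counts. In the GC-corrected fit it was lower in AMPKβ1-/- with vehicle, −0.41 (adjusted p = 0.00354), where the CPM with the trend removed were 22.3 to 28.4 in WT and 18.7 to 19.2 in AMPKβ1-/-, without overlap, while the CPM from the counts overlapped.

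Among the endosomal receptors, Tlr9, the sensor of unmethylated CpG DNA, had the lowest log2 fold change of the 10 genes with PF in WT. In WT BMDMs Tlr9 had 119, 116 and 145 CPM with vehicle and 86.6, 82.3 and 74.2 CPM with PF. Its values in AMPKβ1-/- BMDMs were 112, 100.3 and 91.9 CPM with vehicle and 109, 96.3 and 89.3 CPM with PF. The WT PF libraries were below every other library of the experiment, and the AMPKβ1-/- groups overlapped. The log2 fold change was −0.65 ± 0.11 in WT (adjusted p = 0.00227), a fall to 0.639-fold, and −0.047 ± 0.11 in AMPKβ1-/- (adjusted p = 0.985). The difference between these responses was −0.60 ± 0.15 with an unadjusted p of 0.00112 and an adjusted p of 0.0949, and adjusted values ranged from 0.021 (DESeq2) to 0.278 over the alternatives, with 0.0415 without WT PF library 1. With the GC trend removed the WT fall was −0.42 (adjusted p = 0.00626) and the difference between responses −0.43 (adjusted p = 0.111).

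The genotype difference of Tlr9 had opposite signs with the treatments. With vehicle it was lower in AMPKβ1-/- by −0.32 ± 0.11 (adjusted p = 0.0164), and the call was lost with the GC trend removed (0.046 (adjusted p = 0.705)), with library size alone as the scaling (−0.11, adjusted p = 0.365) and without WT vehicle library 3 (adjusted p = 0.0922), AMPKβ1-/- vehicle library 2 (0.0507) or AMPKβ1-/- vehicle library 3 (0.0782). With PF it was higher in AMPKβ1-/- by 0.28 ± 0.11 (adjusted p = 0.0434), and with the trend removed by 0.47 (adjusted p = 0.000418). This call was lost without WT PF library 2 (adjusted p = 0.0839) or 3 (0.124) and without AMPKβ1-/- PF library 1 (0.201) or 2 (0.0706).

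Tlr13, which detects bacterial ribosomal RNA in mice, rose with PF in WT. In WT BMDMs Tlr13 had 135, 183 and 140.2 CPM with vehicle and 212, 233 and 267 CPM with PF. The AMPKβ1-/- libraries had 179.9, 239 and 249 CPM with vehicle and 274, 231 and 248 CPM with PF for Tlr13. In WT every PF library exceeded every vehicle library, and in AMPKβ1-/- the groups overlapped. The log2 fold change was 0.63 ± 0.14 in WT (adjusted p = 0.0128) and 0.17 ± 0.14 in AMPKβ1-/- (adjusted p = 0.982), with a difference of 0.46 ± 0.20 (adjusted p = 0.318). After removal of the GC trend the WT rise was 0.31 (adjusted p = 0.0124). The adjusted p was 0.0561 without WT vehicle library 1, 0.0582 without WT vehicle library 3 and 0.0621 without WT PF library 3. With vehicle Tlr13 was higher in AMPKβ1-/- by 0.54 ± 0.14 (adjusted p = 0.00467), which became −0.08 (adjusted p = 0.387) with the trend removed. With PF the genotypes differed by 0.082 (adjusted p = 0.651), and by −0.32 (adjusted p = 0.00136) with the trend removed.

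Tlr7 and Tlr8, neighbours on the X chromosome that sense single-stranded RNA and its breakdown products, were both higher in AMPKβ1-/- BMDMs with vehicle. In WT BMDMs Tlr7 had 40.6, 55.8 and 51 CPM with vehicle and 55.8, 69.7 and 99.9 CPM with PF. In AMPKβ1-/- BMDMs Tlr7 had 69.6, 84.9 and 92.6 CPM with vehicle and 109, 76.9 and 85.1 CPM with PF. WT PF library 3 was the highest of the WT libraries for Tlr7, and WT vehicle library 2 was as high as WT PF library 1. The PF response in WT was 0.61 ± 0.20 with adjusted p = 0.0544, short of the threshold, and passed in DESeq2 (adjusted p = 0.0105), with a count minimum of 10 in every library (0.049), without WT vehicle library 2 (0.0491) and without WT PF library 1 (0.012). In the GC-corrected fit it was 0.18 (adjusted p = 0.303). The genotype difference with vehicle was 0.74 ± 0.20 (adjusted p = 0.00643) and turned to −0.16 (adjusted p = 0.224) with the trend removed. With PF it was 0.26 ± 0.20 (adjusted p = 0.285), or −0.43 (adjusted p = 0.00205) with the trend removed, and 0.53 (adjusted p = 0.0231) without WT PF library 3.

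In WT BMDMs Tlr8 had 36.1, 54.4 and 47.2 CPM with vehicle and 43.9, 54 and 72.6 CPM with PF. Its values in AMPKβ1-/- BMDMs were 72, 121 and 121 CPM with vehicle and 146, 102 and 133 CPM with PF. For either treatment every AMPKβ1-/- library exceeded every WT library, and PF and vehicle overlapped within each genotype. The genotype difference was 1.19 ± 0.24 with vehicle (adjusted p = 0.00103), 2.28-fold, and 1.15 ± 0.23 with PF (adjusted p = 0.00162), 2.22-fold. With the GC trend removed these were 0.22 (adjusted p = 0.158) and 0.38 (adjusted p = 0.0141), so the difference with PF was still called and that with vehicle was not. PF gave 0.31 ± 0.24 in WT (adjusted p = 0.36) and 0.28 ± 0.22 in AMPKβ1-/- (adjusted p = 0.982), and with the trend removed −0.13 (adjusted p = 0.575) and 0.031 (adjusted p = 0.985).

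Tlr3, the sensor of double-stranded RNA that signals through TRIF, had the fewest counts, 29 to 203 per library. In WT BMDMs Tlr3 had 3.1, 6.55 and 7.76 CPM with vehicle and 8.32, 7.02 and 9.77 CPM with PF. The AMPKβ1-/- libraries had 8.39, 13.2 and 13.5 CPM with vehicle and 15.7, 11.2 and 12 CPM with PF for Tlr3. WT vehicle library 1 was the lowest of the 12, and for either treatment all AMPKβ1-/- libraries exceeded all WT libraries. The genotype difference with vehicle was 1.00 ± 0.27 (adjusted p = 0.00647), or −0.0067 (adjusted p = 0.982) with the GC trend removed. With PF it was 0.62 ± 0.26 (adjusted p = 0.0596), and −0.23 (adjusted p = 0.313) with the trend removed. From the counts it passed with PF in DESeq2 (0.0335), with library size alone (0.0385), with only the libraries compared (0.0157) and without WT PF library 3 (0.0456). PF gave 0.52 ± 0.28 in WT (adjusted p = 0.198) and 0.14 ± 0.25 in AMPKβ1-/- (adjusted p = 0.985), and with the trend removed 0.12 (adjusted p = 0.788) and −0.11 (adjusted p = 0.942).

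Unc93b1 had the highest level of the 10 genes and small differences between the groups. In WT BMDMs Unc93b1 had 1643, 1527 and 1629 CPM with vehicle and 1399, 1330.0 and 1268 CPM with PF. In AMPKβ1-/- BMDMs Unc93b1 had 1409.6, 1309 and 1265 CPM with vehicle and 1219, 1292 and 1194 CPM with PF. In WT every PF library was below every vehicle library, and every AMPKβ1-/- vehicle library was below every WT vehicle library. The log2 fold change with PF in WT was −0.26 ± 0.073 (adjusted p = 0.027), that between genotypes with vehicle −0.27 ± 0.073 (adjusted p = 0.00518), and that with PF in AMPKβ1-/- −0.10 ± 0.073 (adjusted p = 0.982). After removal of the GC trend the PF response in WT was −0.034 (adjusted p = 0.739) and the genotype difference with vehicle turned to 0.13 (adjusted p = 0.0358). With library size alone as the scaling the genotype difference was −0.058 (adjusted p = 0.386). The PF call was also lost with only the WT libraries in the fit (adjusted p = 0.128) and when vehicle library 1 (0.0778) or 3 (0.0677) of the WT cells was left out, or their PF library 2 (0.0879) or 3 (0.129).

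**Figure D2:**
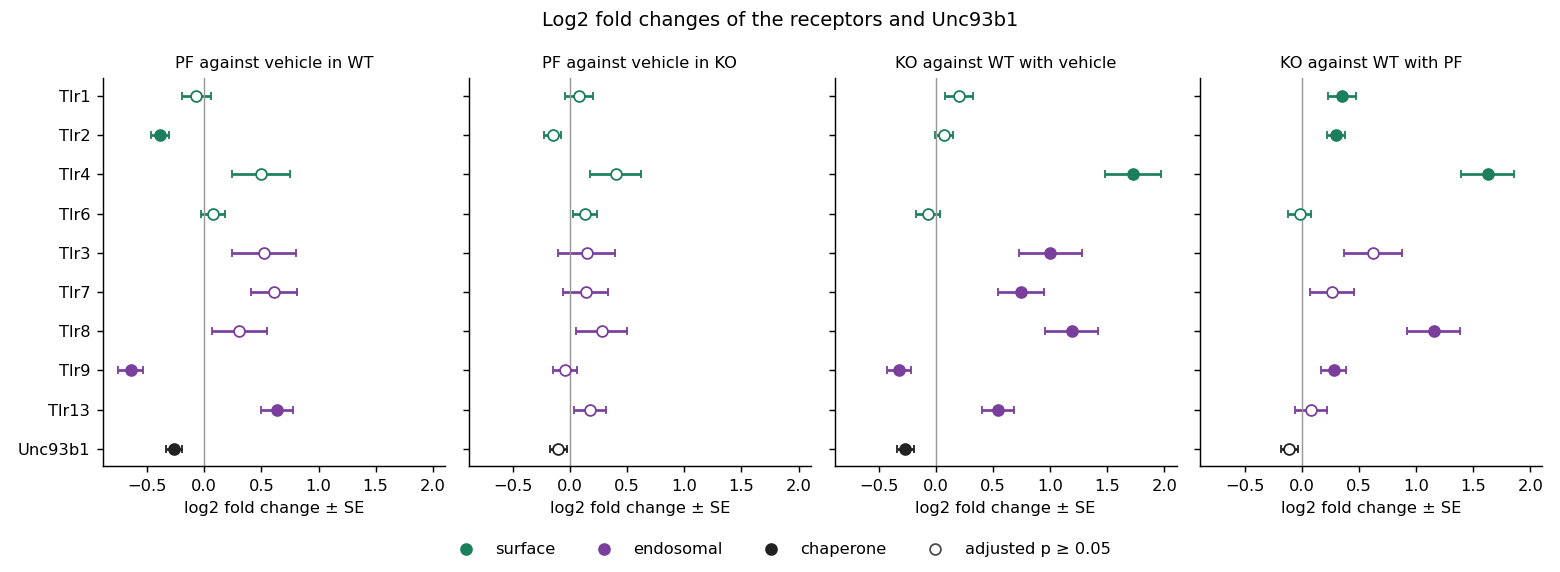
Log2 fold changes (horizontal axis, points) with SE (bars) of the 10 genes in 4 comparisons, coloured by site, with open points where the adjusted p was at or above 0.05; KO is AMPKβ1-/-. Filled points are Tlr2, Tlr9, Tlr13 and Unc93b1 for PF in WT, none for PF in KO, 7 genes for KO against WT with vehicle and 5 with PF.

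The comparison of sites was made on the median log2 fold change of each class and is a description. With PF in WT, the median was 0.0036 over the 4 surface receptors (range −0.39 to 0.50) and 0.52 over the 5 endosomal receptors (−0.65 to 0.63), beside 0.0048 over all genes. The surface range lay inside the endosomal range, and Tlr9 at the bottom and Tlr13 at the top were both endosomal. The difference of medians was 0.52 from the counts, 0.37 with the GC trend removed and 0.21 without WT vehicle library 1, and it was 0.041 for PF in AMPKβ1-/-. Between the genotypes with vehicle, the medians were 0.14 (surface) and 0.74 (endosomal), and their difference of 0.61 became −0.00029 with the trend removed. With PF they were 0.33 and 0.28, and the difference of −0.049 became −0.54 with the trend removed and 0.18 without WT PF library 3. For the difference between the PF responses of the genotypes the contrast was 0.48 from the counts, 0.48 with the trend removed and 0.22 without WT vehicle library 1. Removing the GC trend thus changed the size of the contrast between surface and endosomal receptors in both genotype comparisons and for PF in WT. It changed the contrast little for the difference between the responses.

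Within libraries, the mean log2 CPM of the endosomal receptors minus that of the surface receptors was −0.13, 0.21 and 0.27 in WT vehicle and 0.38, 0.34 and 0.45 in WT PF. It was 0.14, 0.32 and 0.34 in AMPKβ1-/- vehicle and 0.42, 0.20 and 0.28 in AMPKβ1-/- PF. The WT PF libraries all lay above the WT vehicle libraries, and the AMPKβ1-/- groups overlapped. In the GC-corrected fit the 3 WT PF libraries, at 0.44 to 0.50, still lay above the WT vehicle libraries, at 0.044 to 0.39, and above all AMPKβ1-/- libraries, at 0.084 to 0.26.

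**Figure D3:**
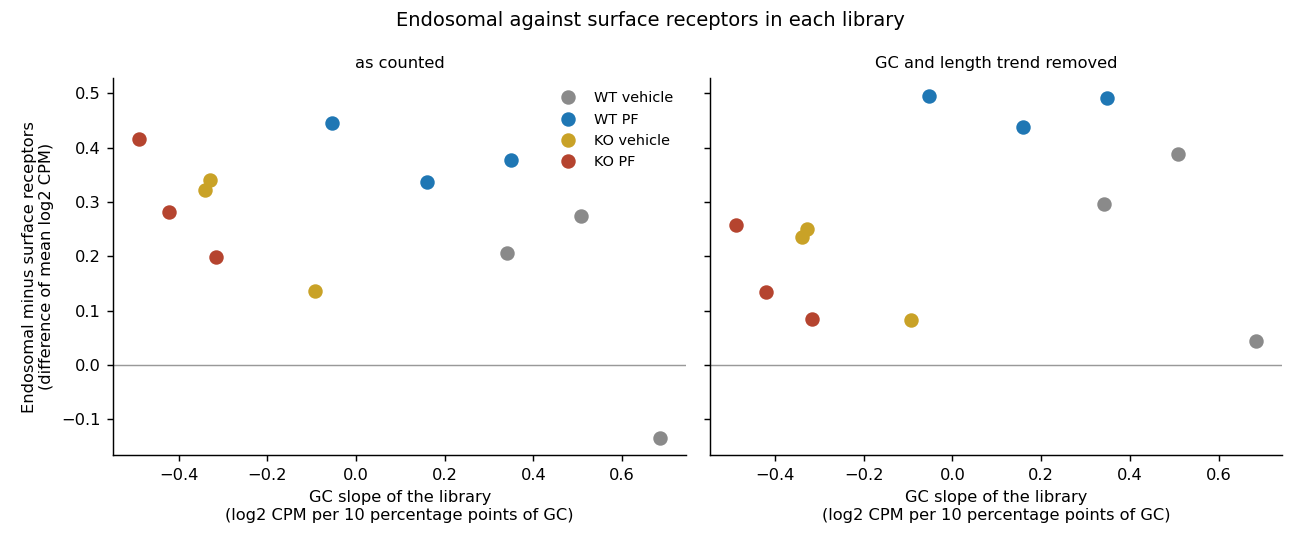
Difference between the mean log2 CPM of the 5 endosomal and the 4 surface receptors in each library (vertical axis) against the slope of that library on GC content (horizontal axis), as counted (left) and after removing the trend in GC content and length (right); KO is AMPKβ1-/-. WT vehicle library 1, at the highest slope, has the lowest difference in both panels, −0.13 and 0.044, and the 3 WT PF libraries lie between 0.44 and 0.50 in the right panel.

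The receptors' fold changes tended to be lower at higher GC content, to an extent that differed between the comparisons. Over the 9 receptors, Spearman's rho between exon GC content and log2 fold change was −0.70 for PF in WT and −0.97 for AMPKβ1-/- against WT with vehicle, where it was −0.69 and −0.74 over the 10786 tested genes with a GC value. The receptors share the same libraries, so these are descriptions without a p. With the trend removed the 9 receptors gave −0.70 and −0.35. The 5 genes that were higher in AMPKβ1-/- with vehicle had between 39.4% and 43.6% GC and were the 5 lowest of the 10 in GC content. The 2 that were lower had 56.2% and 57.3% and were the 2 highest. With the trend removed, Tlr4 alone of those 5 was still higher, and Tlr2 and Unc93b1 were now higher as well and Tlr6 lower. For PF in WT the corrected fit called Tlr13 higher and Tlr1, Tlr2 and Tlr9 lower, so that Tlr2, Tlr9 and Tlr13 were called in the same direction in both fits.

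**Figure D4:**
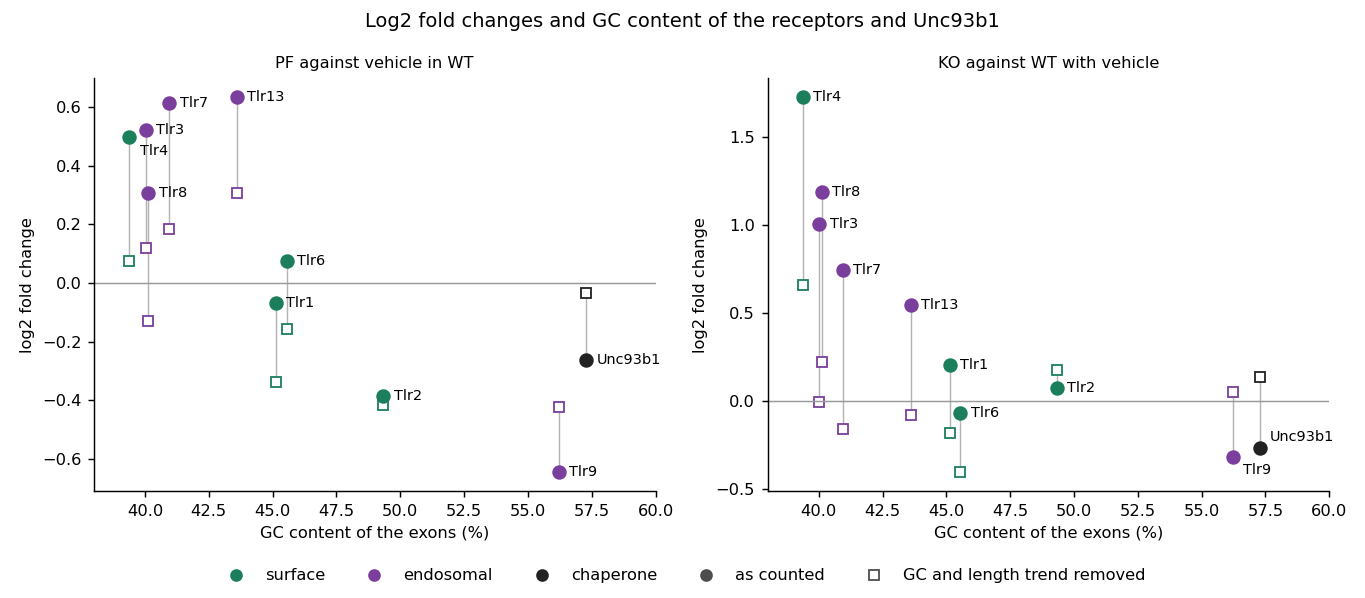
Log2 fold change (vertical axis) of the 10 genes against the GC content of their exons (horizontal axis) for PF against vehicle in WT (left) and KO (AMPKβ1-/-) against WT with vehicle (right); filled circles are values from the counts and open squares, joined to them by a line, values with the GC and length trend removed. In the right panel the genes between 39.4% and 43.6% GC have positive values from the counts, and 4 of these 5 squares lie between −0.16 and 0.22, with Tlr4 at 0.66.

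Levels were compared between genes per kilobase of exon. In WT vehicle, Unc93b1 had 528 ± 20.8 CPM per kilobase (SD, n = 3) and Tlr2 90.5 ± 8.08. Tlr9 and Tlr13 followed with 36.4 ± 4.44 and 35.5 ± 6.14, and their library ranges overlapped. Tlr1, Tlr8 and Tlr7 were next, at 14.2 ± 0.897, 12.8 ± 2.56 and 12 ± 1.9, and neighbours among these overlapped too. Tlr6 (5.68 ± 0.284), Tlr4 (2.41 ± 0.721) and Tlr3 (1.11 ± 0.465) had the lowest levels, with no overlap between neighbours. Unc93b1 and Tlr2 were the top pair in all 4 groups and Tlr3 the lowest. In WT PF, Tlr13 (55.1 ± 6.44) lay above Tlr9 (23.3 ± 1.81) without overlap. In AMPKβ1-/- vehicle Tlr8 (29.2 ± 7.87) and Tlr9 (29.1 ± 2.87) overlapped, and Tlr4 (8.03 ± 1.28) lay above Tlr6 (5.4 ± 0.323), the reverse of their order in WT. How the GC content of a gene bears on its level relative to other genes was not tested.

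**Figure D5:**
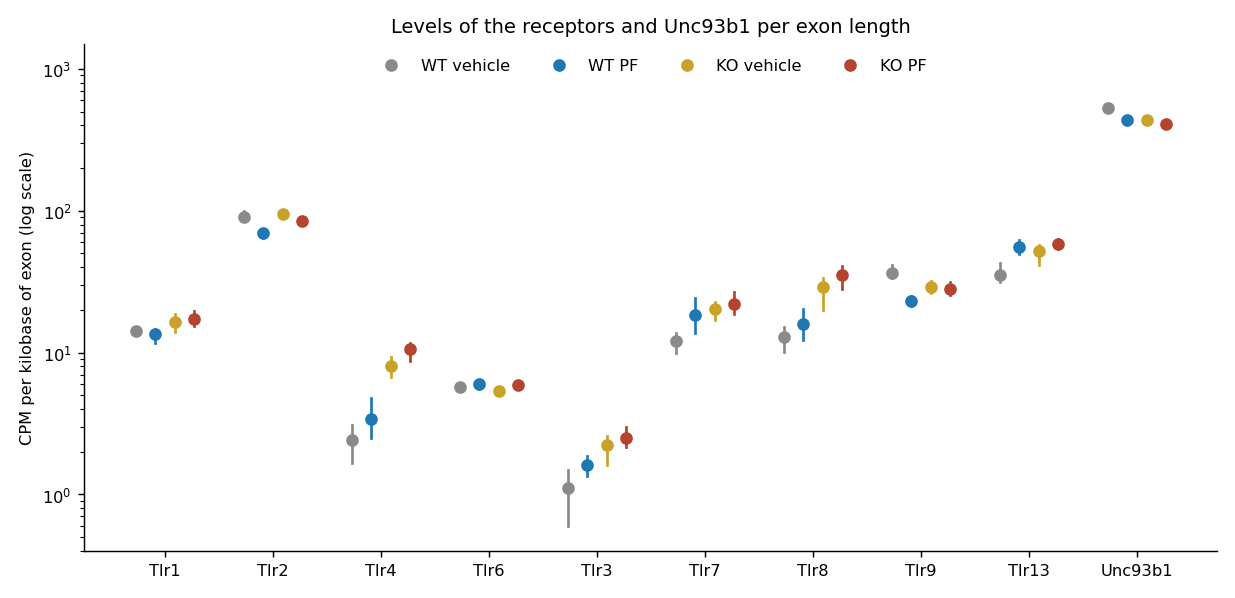
Levels in CPM per kilobase of exon (vertical axis, log scale) of the 10 genes in the 4 groups, as the mean (points) and the range (lines) of 3 libraries; KO is AMPKβ1-/-. Unc93b1 is at 407 to 528 and Tlr2 at 69.2 to 94.9 in the group means, and Tlr3 is lowest with 1.11 to 2.49.

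The proteins that TLRs work with were taken from a list of 40 genes, of which 37 were tested. With PF in WT, 3 of the 37 rose and 7 fell (6.99% and 8.95% of all genes), with a median log2 fold change of −0.062 against 0.0048 over all genes. The genes that rose, given with their log2 fold changes, were Hsp90b1 (0.57 ± 0.17), which encodes the endoplasmic reticulum chaperone gp96 that folds TLRs, and Ctsl (0.36 ± 0.088) and Ctss (0.43 ± 0.11), lysosomal cathepsins that can cleave endosomal TLRs. Those that fell were the co-receptor Cd14 (−0.43 ± 0.087), the endosomal nucleases Pld4 (−0.40 ± 0.088) and Rnaset2a (−2.01 ± 0.51), the adaptor Ticam1, which encodes TRIF (−0.41 ± 0.11), the inhibitory kinase homologue Irak3 (−0.28 ± 0.086), and the transcription factors Irf3 (−0.34 ± 0.09) and Irf5 (−0.39 ± 0.082). Rnaset2a had only 0.696 ± 0.631 CPM in WT PF and 2.97 ± 0.272 CPM in WT vehicle (SD, n = 3), and its near-identical copy Rnaset2b can share its reads. With the GC trend removed 1 rose and 5 fell (3.09% and 3.73% of all genes). The gene that rose there was another, the transporter Slc15a3 (0.25), and Hsp90b1 (0.19), Ctsl (0.080) and Ctss (0.12) were no longer called. Cd14 (−0.40), Pld4 (−0.20), Rnaset2a (−2.07), Irak3 (−0.27) and Irf5 (−0.20) were the 5 that fell, and Ticam1 (−0.21) and Irf3 (−0.11) were no longer called. The count of 10 was 2 with only the WT libraries in the fit, 4 without WT vehicle library 1 or 3, 16 without WT PF library 1, 3 without WT PF library 2 and 2 without WT PF library 3, beside 29.7% of all genes without WT PF library 1 and 4.15% without WT PF library 2.

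In AMPKβ1-/- BMDMs 0 of the 37 changed with PF in edgeR, DESeq2 or limma-voom, beside 0.0554%, 0.453% and 0.249% of all genes. By edgeR 2 had an unadjusted p below 0.05, as did 539 of the 10822 genes tested. Between the genotypes with vehicle 8 of 37 were higher and 19 lower in AMPKβ1-/- (29.7% and 30% of all genes), with a median log2 fold change of −0.21 against −0.026 over all genes, and 4 were higher and 9 lower with the GC trend removed (16.3% and 21.9% of all genes). These 13 include 3 that were not called from the counts, Irak3 (0.22) higher and Cd180 (−0.41) and Ticam2 (−0.37) lower, and 17 of the 27 were no longer called. The values of these 27 genes are log2 fold changes with SE between 0.068 (Tollip) and 0.31 (Ly96). Among the co-receptors, Cd36 (1.44) and Ly96, which encodes MD-2 (1.35), were higher, and Cd14 (−0.24) was lower. With the trend removed Cd36 was still higher (0.34), and Ly96 (0.53) and Cd14 (0.052) were not called. Of the folding and traffic genes, Hsp90b1 was higher (1.09), and Cnpy3, a TLR chaperone (−0.34), Lrrc59 (−0.29) and the endosomal transporters Slc15a3 (−0.43) and Slc15a4 (−0.33) were lower. Of these, Hsp90b1 alone was called with the trend removed (0.30), beside Cnpy3 at 0.075, Lrrc59 at 0.018, Slc15a3 at −0.10 and Slc15a4 at −0.034. Of 10 endosomal proteases and nucleases, Ctsl (0.36) and Ctss (0.26) were higher and 7 lower, from −0.20 (Lgmn) to −0.72 (Ctsk), with Pld3 (−0.71), Pld4 (−0.64), Ctsb (−0.38), Dnase2a (−0.38) and Rnaset2b (−0.31) between them. With the trend removed Ctsk (−0.62), Ctsb (−0.38), Rnaset2b (−0.35), Pld3 (−0.29) and Pld4 (−0.29) were still lower, and Dnase2a (−0.093), Lgmn (0.044), Ctsl (−0.25) and Ctss (0.026) were not called.

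Among the adaptors and signalling proteins, Tirap (0.32), Traf3 (0.44) and Traf6 (0.26) were higher in AMPKβ1-/- with vehicle. Irf7, a transcription factor of the interferon response, was lower, from 619 ± 78.4 to 354 ± 17.97 CPM (SD, n = 3 each; −0.81). Lower too were Ticam1 (−0.59), Irf3 (−0.47), Irak2 (−0.33), Irf5 (−0.32), Tollip (−0.21) and the shared adaptor Myd88 (−0.26). With the trend removed Traf3 (0.57) was still higher and Irf7 (−0.47) and Ticam1 (−0.20) still lower. The other 7 were not called there, with Tirap at 0.13, Traf6 at −0.19, Irf3 at −0.089, Irak2 at −0.087, Tollip at −0.12, Irf5 at 0.053 and Myd88 at 0.051. With PF in WT Myd88 gave −0.23 ± 0.094 (adjusted p = 0.0988), Cnpy3 −0.20 ± 0.09 (adjusted p = 0.118) and Ly96 0.62 ± 0.33 (adjusted p = 0.191). Of the other TLRs listed, Tlr5 had 10 to 28 counts per library and Tlr11 at most 5, and Tlr12 was not analysed here.

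Genes with the most similar pattern were sought by the Pearson correlation of log2 CPM over the 12 libraries, a description that also follows differences between the libraries. For Tlr9 they were Ikbke (r = 0.976), 2610507B11Rik (0.957) and Icam1 (0.957), and for Tlr2 they were Srgap3 (0.939), Atmin (0.932) and Cpt1a (0.918). Bcap29, Jmjd1c and Nr1d2 (0.996 each) were most like Tlr4, and Pdlim5 (0.997), Itch (0.995) and Fli1 (0.993) most like Tlr8. For Tlr13 they were Ghitm (0.99), Cd84 (0.986) and Atp6v1a (0.984), for Unc93b1 Cd82 (0.981), Poldip3 and Plod1 (0.98 each), for Tlr7 Brox (0.974), Txndc9 and Tmx1 (0.973 each), and for Tlr3 Rnf115 (0.986), Pdcd6ip (0.981) and Dld (0.976). Tlr1, with AI662270 (0.907), Clec4a3 (0.891) and Plxdc2 (0.884), and Tlr6, with Utp23 (0.83), Oma1 (0.824) and Nsl1 (0.821), had the lowest correlations. The partners of Tlr4 had 40.2% to 43.2% GC and those of Unc93b1 52.7% to 55.3%. After removal of the GC trend the closest partners were Cd14 for Tlr2 (0.964), Etv6 for Tlr9 (0.941), Shtn1 for Tlr4 (0.983) and Shoc2 for Tlr8 (0.94). Utp23 was the closest to Tlr6 on both scales.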

How the data were processed

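RNA sequencing was done on total RNA of BMDMs in 12 libraries, 3 in each of 4 groups. The authors prepared directional libraries, used MultiQC to check and Trim Galore to trim the paired-end reads, and ran Salmon on transcripts. What they deposited are its estimated counts for each gene as whole numbers, without normalization. Versions, genome build and Salmon's bias settings are not given in the sources used here. Salmon can divide reads between similar genes. Whether a setting that corrects for GC content would change the counts of the receptors was not tested.

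The genotype and treatment of each library came from the names of the count columns, which match the groups of the labels. No value was taken from the paper or its supplements. The sum of counts was 8935609 to 14358180 per library, and at these depths the lowest receptor count was 29. Replicates differed by more than counting noise (chi-square per degree of freedom 2.16 to 17.8 over 12 pairs).

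Genes were kept by filterByExpr (10822 of 12960) and fitted with edgeR 4.0.16 (TMM, robust quasi-likelihood, 4 group means over all 12 libraries) in R 4.3.3, with Benjamini-Hochberg adjustment over all genes tested. A gene was called at an adjusted p below 0.05. CPM use TMM library sizes, and log2 CPM a prior count of 2. On simulated counts with known changes the fit was tested before use. GC content and exon length came from GENCODE M21, where 12703 symbols were found, 194 more under an older name, and 63 were not found, so that 99.7% of tested genes had a value. Natural splines (5 degrees of freedom) described their trend in a library, which became an offset of the fit. Alternatives were DESeq2 1.42.0, limma-voom (limma 3.58.1), other scalings and filters, only the libraries compared, a log2 fold change beyond 0.8, each library left out and a replicate block.

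All 10 members are described, with the genes of the pathway list that passed with PF in WT or between the genotypes with vehicle, Cd14, Ly96, Cnpy3, Hsp90b1 and Myd88 in any case, and the 3 genes most correlated with each member. The members, lists and rules were chosen with earlier results of these data known. Promoters came from RefSeq on GRCm38.p6, where 7 of the 10 members had a window.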

Additional observations from a re-analysis of the deposited data

How the results depend on the processing

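Over 10 genes and 5 comparisons, the correction for GC content and exon length changed the most results, and no other alternative turned the sign of a called member. For AMPKβ1-/- against WT with vehicle it turned the log2 fold changes of Tlr3 to −0.0067, Tlr7 to −0.16, Tlr9 to 0.046, Tlr13 to −0.080 and Unc93b1 to 0.13, and for AMPKβ1-/- against WT with PF those of Tlr7 to −0.43 and Tlr13 to −0.32. It moved the members called with vehicle from 7 to 4, the pathway genes called from 27 to 13 there and from 10 to 6 with PF in WT, and the endosomal minus surface median log2 fold change from 0.52 to 0.37 (PF in WT), from 0.61 to −0.00029 (genotypes with vehicle) and from −0.049 to −0.54 (genotypes with PF). Adding the log2 fold change of 0.8 left 0 members with PF in WT, 3 between the genotypes with vehicle and 2 with PF, and 1 and 4 pathway genes (PF in WT, genotypes with vehicle). Of the 10822 genes tested it left 165 (PF in WT), 1931 (genotypes with vehicle) and 1543 (genotypes with PF). With only the WT libraries in the fit, 2 members and 2 pathway genes were called with PF. DESeq2 called 1 member, Tlr9, for the difference between the responses. The alternatives on the pathway list were added after seeing the data.

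Leaving out each library gave 2 to 5 members and 2 to 16 pathway genes called with PF in WT, 0 to 1 members for the difference between the responses, 0 members and 0 pathway genes with PF in AMPKβ1-/-, 6 to 8 members and 21 to 27 pathway genes between the genotypes with vehicle, and 3 to 6 members with PF. Of all genes, these fits called 3.17% to 29.7% (PF in WT), 0.0458% to 2.6% (difference between the responses) and 0% to 0.055% (PF in AMPKβ1-/-). Between the genotypes they called 48.4% to 58.9% of all genes with vehicle and 35.8% to 50% with PF. The endosomal minus surface median log2 fold change then ranged from 0.21 to 0.67 (PF in WT), from −0.049 to 0.14 (PF in AMPKβ1-/-), from 0.22 to 0.60 (difference between the responses), from 0.45 to 0.70 (genotypes with vehicle) and from −0.092 to 0.18 (genotypes with PF). Library size alone as the scaling moved the median of all genes between the genotypes to 0.18 with vehicle and 0.15 with PF. It called 7 members higher and 0 lower in AMPKβ1-/- with vehicle, beside 39.7% and 14.8% of all genes. With PF it called 6 higher and 0 lower, beside 31.8% and 12.6%. The labels give each library its own number, while the names of the count columns end in 1 to 3 in every group. Columns of the same number correlated at −0.17 to 0.32 in their deviations from the group means, over 0.1 in 4 of 12 pairs. Of the 12, 6 correlated best with their own number. The labels name no pairing, and these values cannot show whether columns of the same number belong together. With that number as a replicate block, an alternative added after seeing the data, no member's call changed (4 with PF in WT, 7 and 5 between the genotypes with vehicle and with PF, 0 otherwise), and 11 pathway genes in place of 10 were called with PF in WT. Of all genes the block called 18.3% with PF in WT, against 15.9% without it. Between the genotypes it called 59.6% of all genes with vehicle and 47.9% with PF. For the difference between the responses it called 0.434%, and for PF in AMPKβ1-/- 0%. Depth limits Tlr3, whose counts went down to 29.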
